A study of Mus musculus with 9 samples.

Results

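The genes described here encode the proteins of the mitochondrial ribosome. They were taken by name: every row of the table whose symbol starts with Mrpl or Mrps followed by a digit, leaving out names with -ps, which gave 76 of 23420 rows (47 Mrpl genes, for large-subunit proteins, and 29 Mrps genes, for small-subunit proteins). RNA was sequenced from a piece of kidney cortex of about 50 mg from each of 9 male C57/BL6 mice on a 12 h light and dark cycle and a chow diet. The fed group held 5 mice with free access to food (Fed 1 to Fed 5), and the fasted group held 4 mice that had no food for 16 h (Fasted 1 to Fasted 4). The mice carried no labelled allele or agent, their age is not given in the sources used here, and each library came from 1 mouse. The numbers only name the libraries.

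The mitochondrial ribosome sits in the mitochondrial matrix and translates the messenger RNAs of mitochondrial DNA, all of which encode subunits of the respiratory chain and ATP synthase. All of its proteins are encoded in the nucleus and imported, and they join ribosomal RNAs made inside the organelle. Some have counterparts in bacterial ribosomes, and others were added during the evolution of mitochondria. The kidney cortex is mostly proximal tubule, an epithelium packed with mitochondria that feed its sodium transport.

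In the fasted kidneys the transcripts of the mitochondrial ribosome differed little from the fed ones. Of the 76 members, all of which passed the filter of a mean of at least 10 normalized counts, 1 rose (Mrpl14), 1 fell (Mrpl37) and 74 did not pass. Among all 15098 genes tested, 11% were called changed, 5.72% higher and 5.25% lower in the fasted group. A call is a Benjamini-Hochberg adjusted p under 0.05 over all genes tested. Changes are log2 differences, fasted over fed, of log2(normalized count + 1), with their standard error (SE).

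The members' changes lay between -0.41 and 0.43 on the log2 scale, with a median of -0.07, or -4.94%, against 0.0009 over all genes tested. A value below 0 was found for 55 of the 76 members (72.4%), against 49.8% of all genes. Most changes were small: 57 of 76 (75%) lay within 0.2 of 0 on the log2 scale, against 59.6% of all genes, and 0 of 76 were past 1.5-fold, against 7.64%. For 68 of the 76 members (89.5%) the whole 95% interval of the log2 change lay inside 1.5-fold in either direction, against 67.3% of all genes. The 8 others were Mrpl12, Mrpl14, Mrpl22, Mrpl23, Mrpl34, Mrpl42, Mrps21 and Mrps36. An unadjusted p under 0.05 was found for 19 members, 16 lower and 3 higher in the fasted group, or 25%, against 26.8% of all genes tested. The fed and fasted libraries did not overlap for 5 members, higher in the fasted group for Mrpl14 and Mrpl24 and lower for Mrpl19, Mrpl37 and Mrps15, against 14.3% of all genes tested.

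**Figure D1:**
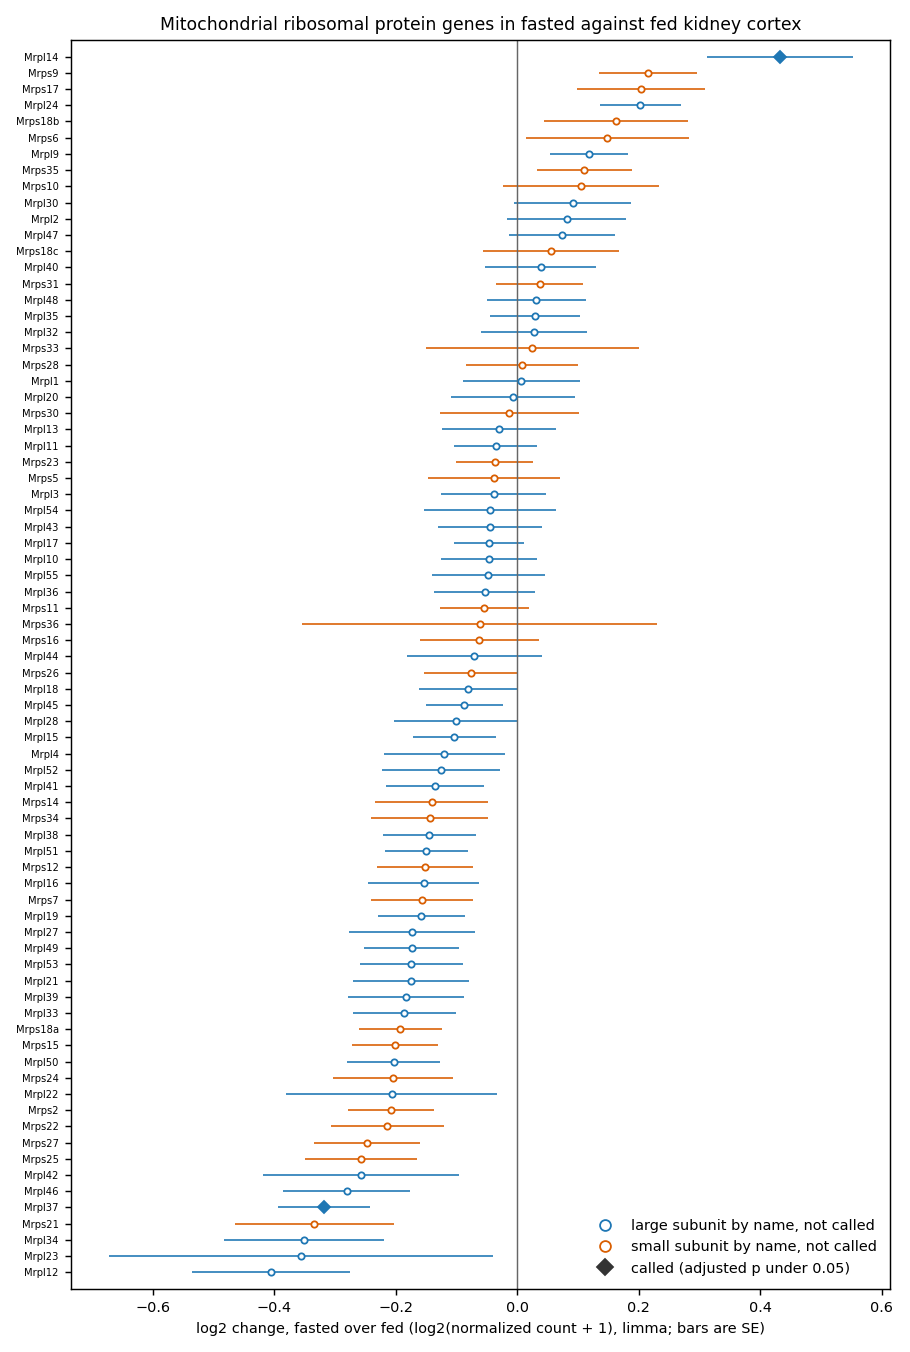
Log2 change (fasted over fed, x axis) of the 76 members, with bars of 1 SE, blue for large-subunit and orange for small-subunit names and filled diamonds for called genes. The points run from -0.41 (Mrpl12) to 0.43 (Mrpl14), 55 lie below 0, and the only diamonds are Mrpl37 and Mrpl14.

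Mrpl37 encodes a large-subunit protein with no bacterial counterpart and was the member that fell. The gene lies on the minus strand of chromosome 4, at chr4:107055874-107066868 (GRCm38). Its transcript stood at 1049, 974, 1173, 1020.1 and 947 normalized counts in Fed 1 to Fed 5 and at 796, 884, 787 and 839 in Fasted 1 to Fasted 4. Every fasted library was below every fed one. The group means were 1033 ± 88.1 (SD, n = 5) and 827 ± 44.6 (SD, n = 4), a log2 change of -0.32 (SE 0.08, adjusted p = 0.0222).

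Mrpl14 encodes the counterpart of bacterial L14, which lies on the face of the large subunit that meets the small one, and was the member that rose. The gene lies on the plus strand of chromosome 17, at chr17:45686322-45698495 (GRCm38). Its transcript stood at 457, 455, 310.5, 436 and 366 normalized counts in Fed 1 to Fed 5 and at 486, 571, 543 and 566 in Fasted 1 to Fasted 4. Every fasted library was above every fed one, and Fed 3 and Fed 5 were the lowest of all. The means were 405 ± 64.4 (SD, n = 5) and 542 ± 38.8 (SD, n = 4), a log2 change of 0.43 (SE 0.12, adjusted p = 0.0419).

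Mrpl37 and Mrpl14 moved in opposite directions, and their promoters are shown to compare which binding letters stand at their starts. Each run is the RefSeq sequence on GRCm38.p6, 5′ to 3′ on the gene's own strand, from 250 bases before the start of transcription to 50 after it. Capitals mark matches to the letters of 5 motifs searched on both strands. The window of Mrpl37 is chr4:107066817-107067116 on the minus strand and that of Mrpl14 is chr17:45686099-45686398 on the plus strand.
Mrpl37: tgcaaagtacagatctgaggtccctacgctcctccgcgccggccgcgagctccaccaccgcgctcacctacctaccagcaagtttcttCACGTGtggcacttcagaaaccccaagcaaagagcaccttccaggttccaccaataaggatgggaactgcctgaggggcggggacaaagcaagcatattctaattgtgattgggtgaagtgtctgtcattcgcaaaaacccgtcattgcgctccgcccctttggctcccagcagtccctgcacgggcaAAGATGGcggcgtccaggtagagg
Mrpl14: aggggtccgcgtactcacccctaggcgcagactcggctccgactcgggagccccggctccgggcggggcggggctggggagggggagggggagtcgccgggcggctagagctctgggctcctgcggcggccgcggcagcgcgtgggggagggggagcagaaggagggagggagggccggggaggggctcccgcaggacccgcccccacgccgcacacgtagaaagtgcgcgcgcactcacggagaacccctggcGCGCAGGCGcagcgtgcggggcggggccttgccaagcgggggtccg
In the Mrpl37 window the E-box letters CACGTG, which read the same on both strands, begin 162 bases before the start, and the YY1 letters AAGATGG begin at base 27 of the transcript. The Mrpl14 window holds a match to the NRF-1 letters GCGCANGCG that begins at base 5 of the transcript, and no match to the other motifs. A match is a description of the letters and not of binding.

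The sequence table held a promoter for 67 of the 76 members. The ETS letters CCGGAAG, of the kind read by the GABP factor (also called NRF-2), were in 34.3% of these windows, against 16.3% of those of the genes tested and 9.12% of all 27025 windows of the same length. The NRF-1 letters were in 22.4%, 12.4% and 6.47% of the same sets, and the YY1 letters in 19.4%, 6.88% and 6.48%. GABP, NRF-1 and YY1 are known as activators of nuclear genes for mitochondria. The CRE letters TGACGTCA were in 2.99%, 3% and 1.88%, and the E-box letters in 7.46%, 9.81% and 7.24%. The median content of G and C was 58% in the members' windows and 60.3% in those of the genes tested. The 23 members with the ETS letters had a median log2 change of -0.15, with 20 below 0, and the 44 without them had -0.05, with 28 below 0. The 13 with the YY1 letters had -0.16 and the 54 without them -0.05, while the 15 with the NRF-1 letters had -0.05 and the 52 without them -0.09. No test was made of these differences.

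Mrpl12 had the largest decrease, but it did not pass the test. Its protein is part of the stalk of the large subunit, and it is also known to bind the mitochondrial RNA polymerase. Its transcript stood at 1861, 1738, 2179.8, 2159 and 1630.2 normalized counts in Fed 1 to Fed 5 and at 1278, 1901, 1269 and 1376 in Fasted 1 to Fasted 4. Fasted 2 stood among the fed libraries, and the other fasted libraries were below all of them. The log2 change was -0.41 (SE 0.13, adjusted p = 0.0719). Without Fasted 2 Mrpl12 was called, with a log2 change of -0.54 (adjusted p = 0.0145), and over all alternatives its adjusted p lay between 0.0145 and 0.246.

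Among the other large-subunit genes with large decreases, Mrpl34, for the counterpart of bacterial L34, stood at 1061, 888, 660.4, 954 and 695 normalized counts in the fed libraries and at 645, 693, 659.9 and 631 in the fasted ones. Fed 3 and Fed 5 were within or next to the fasted range, and the other fed libraries were well above it (log2 change -0.35, SE 0.13, adjusted p = 0.113). Mrpl46, for a mitochondria-specific protein, stood at 658, 725, 704, 767 and 541 in the fed libraries and at 508, 529.6, 582 and 606 in the fasted ones, so that only Fed 5 was inside the fasted range. Its log2 change was -0.28 (SE 0.10, adjusted p = 0.110). Mrpl23 had a change of -0.36 with an SE of 0.32 (adjusted p = 0.511), at 7.52 to 19.7 normalized counts in the fed and 8.0 to 14 in the fasted libraries, and so could not be told from no change.

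Mrpl24, for the counterpart of bacterial L24, was the other large-subunit gene among the 6 largest increases. It stood at 793, 789, 749.8, 841 and 779.8 normalized counts in the fed libraries and at 844, 929, 885 and 984 in the fasted ones. The groups did not overlap, but Fed 4 and Fasted 1 lay close together, and the log2 change of 0.20 (SE 0.07) had an adjusted p of 0.0759. Its exons overlap those of Rrnad1 on the other strand over 594 bases.

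No small-subunit gene was called by limma. An unadjusted p under 0.05 was found for 8 of the 29 (27.6%, against 26.8% of all genes tested), 7 of them lower in the fasted group. By edgeR the count called was also 0. By DESeq2 it was 1 (Mrps2, or 3.45%, against 16.8% of all genes). By voom with quality weights it was 5 (17.2%, against 17.9% of all genes), all lower. Mrps21, for the counterpart of bacterial S21, had the largest decrease. It stood at 833, 841, 979, 844 and 599.8 normalized counts in the fed libraries and at 651, 548, 719 and 662 in the fasted ones. Fed 5 lay within the fasted range, and the other fed libraries lay above it (log2 change -0.33, SE 0.13, adjusted p = 0.128). Mrps15, for the counterpart of bacterial S15, was the small-subunit gene whose groups did not overlap. It lay between 502 and 561 in the fed and between 439.9 and 492 in the fasted libraries (log2 change -0.20, SE 0.07, adjusted p = 0.0920).

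The small subunit also held 4 of the 6 largest increases, and 0 of these passed. Mrps9, for the counterpart of bacterial S9, went from 847 ± 62.8 to 984 ± 86.9 normalized counts, with a log2 change of 0.22 (SE 0.08, adjusted p = 0.111). Its lowest fasted libraries, at 903 and 924, were below Fed 5 at 937. Mrps17 had 0.20 (SE 0.11, adjusted p = 0.247) and Mrps18b had 0.16 (SE 0.12, adjusted p = 0.416), both with overlapping groups. Mrps6 had 0.15 (SE 0.13, adjusted p = 0.518), and its exons overlap those of Slc5a3 and Gm49711 on the same strand over 464 bases, so its reads are uncertain.

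**Figure D2:**
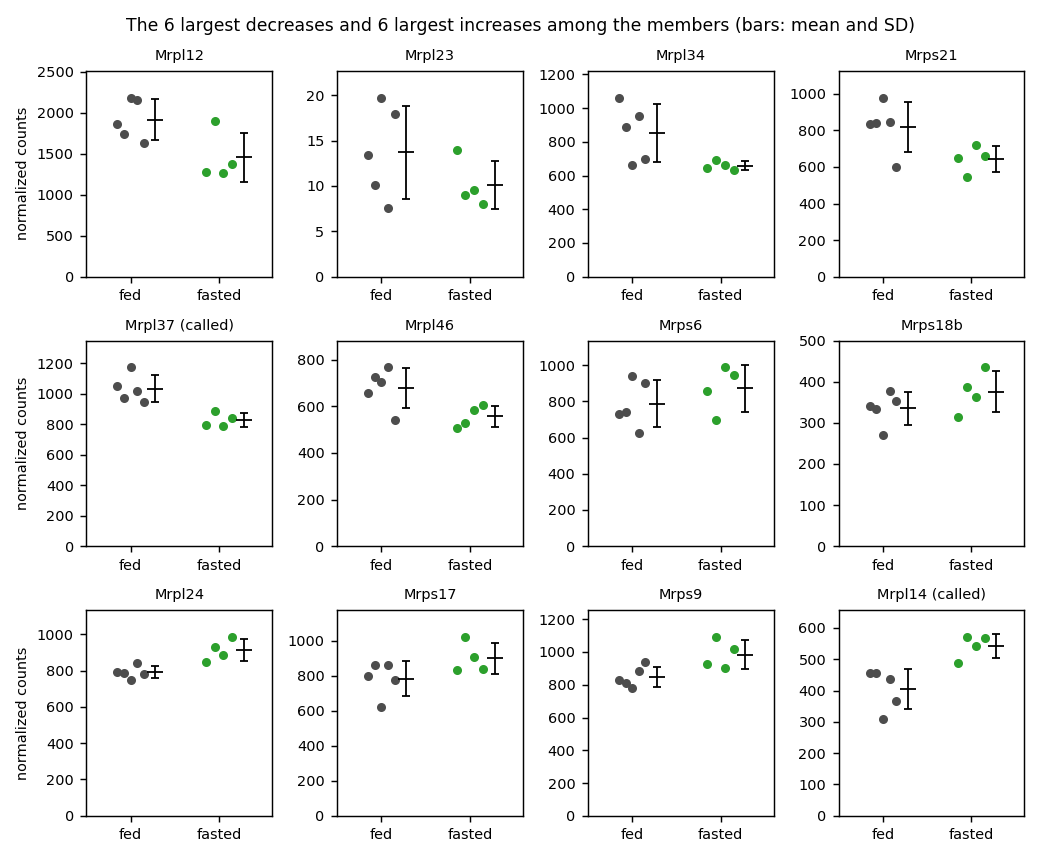
Normalized counts (y axis, from 0) of the 6 members with the largest decreases and the 6 with the largest increases, with 1 point per library for 5 fed and 4 fasted mice and bars of the mean and SD. In the panels of Mrpl37, Mrpl14 and Mrpl24 no fasted point overlaps the fed points, and in that of Mrpl12 a single fasted point, Fasted 2 at 1901, stands among the fed ones.

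The large and small subunits differed little in their change, and the fed and fasted libraries overlapped in the difference between them. The median log2 change was -0.09 over the 47 Mrpl genes, of which 36 were below 0, and -0.06 over the 29 Mrps genes, of which 19 were below 0. The difference of these medians, -0.03, was not tested. By library, the mean deviation of large minus small genes had a spread of 0.0307 (pooled SD). That deviation, taken per gene from the midpoint of the group means on the log2 scale, was 0.01 ± 0.03 (SD, n = 5) in the fed and -0.01 ± 0.03 (SD, n = 4) in the fasted libraries, and the groups overlapped. Summed normalized counts of the Mrpl genes were 38480 ± 3015 in the fed and 35980 ± 893 in the fasted libraries, and those of the Mrps genes were 19493 ± 933 and 18613 ± 727.

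Names do not always match the place of the protein in the ribosome. The products of Mrps30 and Mrps18a sit in the large subunit in known structures, and that of Mrps36 is now known as a part of the alpha-ketoglutarate dehydrogenase complex. Sorted by structure, the members hold 49 large-subunit genes with a median log2 change of -0.09 and 26 small-subunit genes with -0.06. Mrps18a went from 962 ± 50.8 to 842 ± 52.6 normalized counts (log2 change -0.19, SE 0.07, adjusted p = 0.0955), with the highest fasted library, Fasted 2 at 917, above Fed 5 at 882. Mrps30 showed close to no difference, at 766 ± 92.7 and 759.5 ± 107 (log2 change -0.01, SE 0.11, adjusted p = 0.958). Mrps36 had a log2 change of -0.06 with an SE of 0.29.

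Members with and without a bacterial counterpart were also set side by side. The 30 mitochondria-specific members had a median log2 change of -0.13, with 24 below 0, and the 45 with a bacterial counterpart had -0.05, with 30 below 0. Mrpl37 belongs to the first set and Mrpl14 to the second. The mean deviation of the mitochondria-specific genes minus that of the others was between 0.0125 and 0.0417 on the log2 scale in the 5 fed libraries and between -0.0507 and -0.0046 in the 4 fasted ones. Its means were 0.0249 ± 0.0119 (SD, n = 5) and -0.0249 ± 0.0196 (SD, n = 4). The groups did not overlap on this measure, and no test was made of it.

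**Figure D3:**
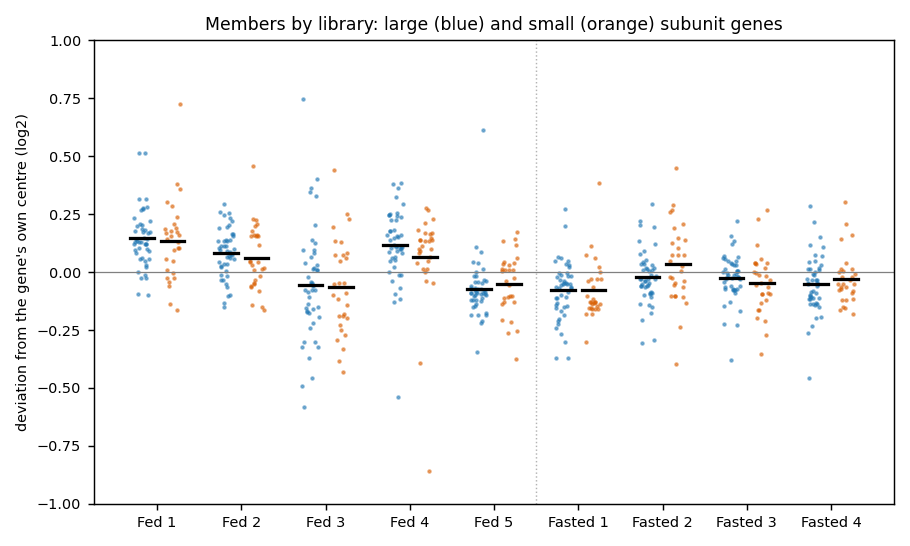
Deviation of each member from the midpoint of its group means (log2, y axis) in each of the 9 libraries, with large-subunit genes in blue, small-subunit genes in orange and black bars for their means. Fed 1, Fed 2 and Fed 4 have both means above 0, while Fed 3 and Fed 5 have both below 0, like Fasted 1, Fasted 3 and Fasted 4.

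The spread among the fed mice was as wide as the difference between the groups. The members' mean deviation was 0.14 in Fed 1, 0.08 in Fed 2, -0.06 in Fed 3, 0.10 in Fed 4 and -0.06 in Fed 5, and -0.08, 0.0005, -0.03 and -0.04 in Fasted 1 to Fasted 4. The group means were 0.04 ± 0.09 (SD, n = 5) and -0.04 ± 0.03 (SD, n = 4), and the groups overlapped. Fed 1 had the highest value of the 9 libraries for 25 members and the lowest for 0, and Fed 3 had the lowest for 25 and the highest for 10. The median deviation of all genes tested was at most 0.0031 from 0 in every library. The scaling by size factors holds this median near 0, so it does not show how single genes vary by library. The median coefficient of variation of the members was 10.8% in the fed and 6.13% in the fasted group, against 12.3% and 9.57% over all genes tested.

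The members varied together within the groups. The median Pearson correlation of their deviations from the group means over the 9 libraries was 0.380 over 2850 pairs of members, against -0.0005 over all pairs of genes tested. It was 0.451 for pairs of large-subunit genes, 0.292 for pairs of small-subunit genes and 0.354 for pairs across the subunits. These values describe pairs that share the same libraries and their depth, and carry no test.

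**Figure D4:**
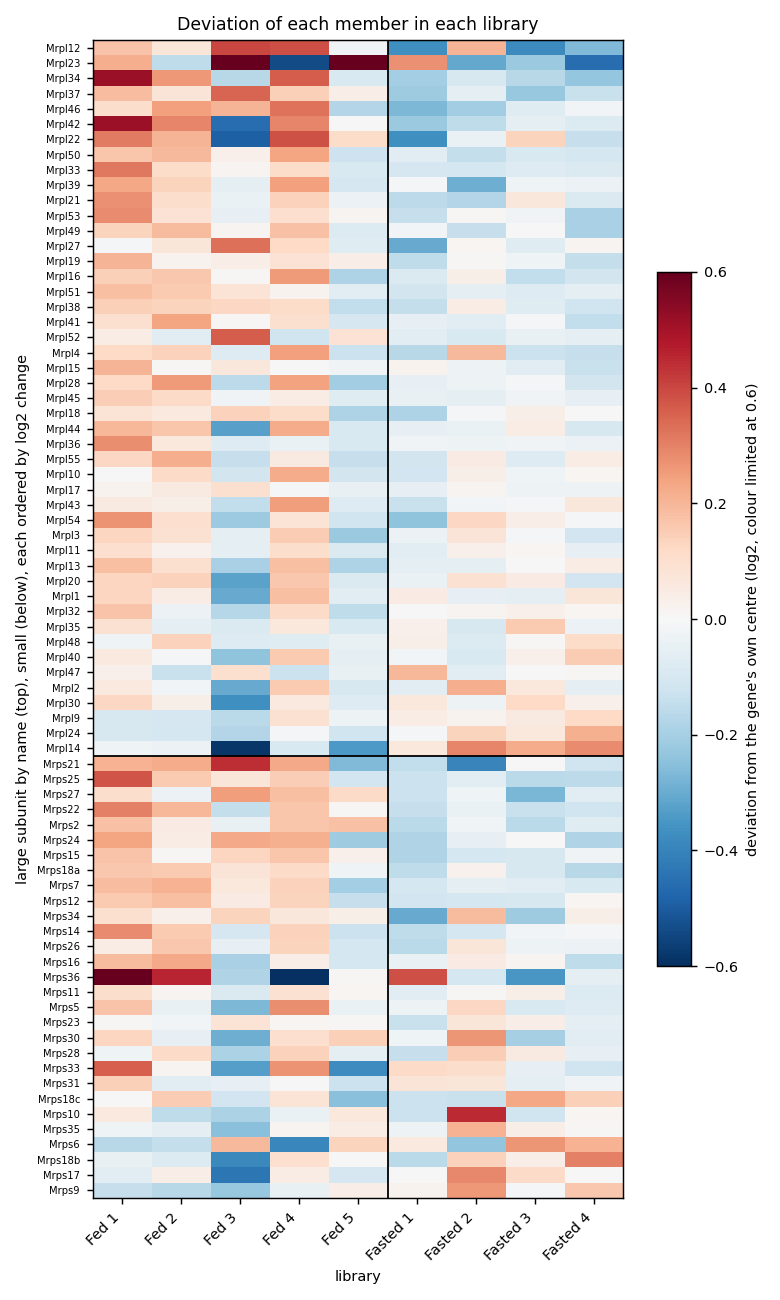
Deviation of each of the 76 members (rows) from the midpoint of its group means in each library (columns), on a log2 colour scale that ends at 0.6 in either direction. Fed 1, Fed 2 and Fed 4 are mostly red and Fasted 1 mostly blue (14 of 76 members above their midpoint), and Fed 3 is mixed, with 29 of 76 above.

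Libraries held 18902645 to 32469467 reads, of which 41401 to 82493 fell in the members. That was 0.237% ± 0.0170 (SD, n = 5) of the reads in the fed and 0.223% ± 0.00748 (SD, n = 4) in the fasted libraries. The ribosomal RNA entry Rn45s took 5.53% of normalized counts in Fed 3, 2.36% in Fasted 1 and 1.38% in Fed 5, the libraries with the lowest mean deviations of the members, and 0.513% to 0.819% in the others. Its part in the members' values was not tested. Markers of the proximal tubule were high in all libraries, with none of the 14 at 0. Their summed normalized counts were 676588 ± 86460 (545151 to 766855) in the fed and 518814 ± 34748 (482150 to 565248) in the fasted group. The 14 genes did not move together: 1 rose (Slc13a3), 2 fell (Slc34a1 and Keg1), and log2 changes were above 0 for 4 and below 0 for 10. Lrp2 and Slc34a1 had the largest means, at 271792 and 147200 in the fed and 196593 and 96907 in the fasted group. By library the sums were 711134 to 766855 in Fed 1, Fed 2 and Fed 4, the libraries with the highest mean deviations of the members, 639513 in Fed 3 and 545151 in Fed 5. The fasted libraries did not follow that order. Fasted 2 had the lowest sum of all, 482150, but the highest mean deviation of its group, 0.0005. Fasted 3 had the highest sum of its group, 565248, at a mean deviation of -0.03. The 6 collecting duct markers, with none at 0, summed to 8328 to 10970 in the fed and 7821 to 8196 in the fasted libraries, which do not overlap, and 1 of the 6 (Slc4a1) fell. Hepatocyte markers summed to 2877 to 17751 in the fed and 8403 to 15431 in the fasted libraries, with none of 8 at 0 in any library, and adipocyte markers to 519.6 to 795 and 791 to 1119, with Lep at 0 in 8 libraries, Retn in 5, Plin1 in 4 and Adipoq in 3. Of the 8 hepatocyte markers 2 rose, and of the 3 adipocyte markers tested 2 rose (Plin1 and Fabp4). Fabp4 made up most of the adipocyte sums, with means of 597 in the fed and 951 in the fasted group. Adipoq, which was too low to be tested, had means of 0.79 and 0.92. None was called among 5 podocyte, 5 thick limb and distal tubule and 6 tested macrophage and lymphocyte markers. In the fed and fasted groups these lists summed to 10848 ± 1172 and 10428 ± 596, 163482 ± 12941 and 180235 ± 14563, and 3173 ± 606 and 3475 ± 1117. The only red blood cell marker tested, Alas2, was not called. Marker counts are to be read against the 11% of all genes tested that were called. The part of the marker shifts in the members' values was not tested. In bulk tissue fewer cells of a type, less RNA per cell and changes of single marker genes cannot be told apart.

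The count of members called depended on the library left out and on the tool. Without Fasted 1, Fasted 3 or Fasted 4, 0 members were called by limma. The share of all genes called fell as well, to 7.18%, 7.03% and 5.7%. In these fits 14, 15 and 11 members had an unadjusted p under 0.05, against 19 with all libraries. The share of all genes at that unadjusted level is not given for these fits. Without Fed 1 only Mrpl14 was called, with 6.64% of genes. Without Fasted 2 the count stayed at 2, with 7.85% of genes, but the members were Mrpl12 and Mrpl37, both lower. Without Fed 3 the count was 6, with 10.5% of genes: Mrpl14 higher and Mrpl34, Mrpl37, Mrpl42, Mrps2 and Mrps22 lower. Without Fed 5 it was 8, all lower (Mrpl12, Mrpl37, Mrpl46, Mrpl50, Mrps7, Mrps21, Mrps24 and Mrps25), with 13% of genes. On recovered reads, edgeR's quasi-likelihood test called the same 2 members as limma and 11% of genes. DESeq2 called 6 (Mrpl14 and Mrpl24 higher, Mrpl12, Mrpl34, Mrpl37 and Mrps2 lower) and 16.8% of genes. With quality weights, voom called 12, of which 11 were lower, and 17.9% of genes. In the authors' deposited table, 75 of the 76 members have an adjusted p, and it is under 0.05 for the same 6 as with DESeq2 and under 0.01 for Mrpl37 alone, against 16% of all genes under 0.05. As a share of the 76 members, these counts were 2.63% by limma and edgeR and 7.89% by DESeq2, below their backgrounds, and 15.8% by voom, near its own.

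Mrpl37 kept its call in 18 of 24 alternatives, with log2 changes from -0.35 to -0.25 and adjusted p-values from 0.00254 to 0.0697. It lost the call without Fed 1, without Fasted 1, Fasted 3 or Fasted 4, without Fed 3 and Fasted 1 together, and at a threshold of 0.01. Mrpl14 kept its call in 17 of 24, with log2 changes from 0.32 to 0.48 and adjusted p-values from 0.0101 to 0.119. It lost the call without Fed 5, without any 1 of the 4 fasted libraries, without limma's trend and at a threshold of 0.01.

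The members' levels were compared per kilobase of exon, the summed length of all annotated exons of a gene. The highest was Mrps21, at 1665 ± 278 normalized counts per kilobase in the fed and 1311 ± 145 in the fasted group. It was followed by Mrpl42 (mean of all libraries 1347), Mrpl20 (1323) and Mrpl28 (1301), which differed from each other by less than their spread within the fed group. The median member was at 494. Per kilobase of coding sequence, with a median of 1174, Mrpl50 came first at 4021, then Mrps21 at 2843, and Mrpl28 moved from place 4 to 18.

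The lowest level was that of Mrpl23, at 12.6 normalized counts per kilobase of exon. Above it came Mrps33 at 50.3, Mrpl48 at 62.7 and Mrps36 at 83.0, and Mrpl23 was also lowest per kilobase of coding sequence, at 22.8. Reads of several such genes can match a near-identical copy elsewhere. Stretches of at least 100 bases at 97% identity or more to another gene covered 85.9% of the Mrpl23 transcript (its pseudogene Mrpl23-ps1), 86% of that of Mrpl22 (Gm6997), 72.6% of that of Mrpl27 and 53.1% of that of Mrps36, whose values are uncertain for that reason. The other 72 members had less than 50% in such copies, and their median log2 change was -0.07. Mrps33, which had 41% in copies, stood at 58.7 to 98.2 normalized counts in the fed and 70.2 to 82.8 in the fasted libraries (log2 change 0.03, SE 0.18).

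**Figure D5:**
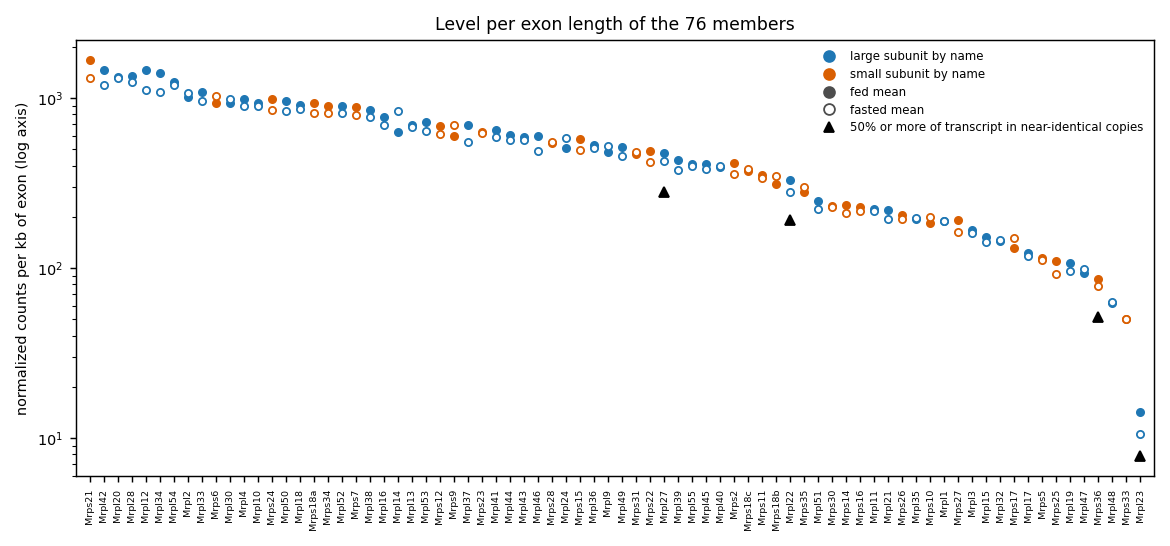
Fed (filled) and fasted (open) mean normalized counts per kilobase of exon (log axis) of the 76 members, in order of their overall level, with triangles under the 4 members that have 50% or more of their transcript in near-identical copies. Levels run from Mrps21 down to Mrpl23, a ratio of 120.0, and the filled and open points of most genes nearly coincide.

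The members lie on 17 chromosomes and often share a start with another gene. For 22 of 76 (28.9%) a coding gene on the opposite strand begins within 1000 bases, head to head, against 10.9% of 13803 tested coding genes. Mrpl37 starts 120 bases from Cyb5rl, whose log2 change was 0.05 (adjusted p = 0.793), while Mrpl37 fell. Among the 22 partners, Gga3 (partner of Mrps7, -0.39, adjusted p = 0.0213) and Ppp1r10 (partner of Mrps18b, -0.65, adjusted p = 0.0122) fell and Pnpla7 (partner of Mrpl41, 0.56, adjusted p = 0.0143) rose, and their member genes were not called. The calls among partners are to be read against the 11% of all genes tested that were called. Exons of 15 members (19.7%) overlap those of a coding gene on the other strand, against 13% of the tested coding genes. Whether strand was used in counting is not given in the sources used here, so the reads of these 15, among them Mrpl24, are uncertain where exons overlap. Their median log2 change was -0.05.

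The table has 7 further mitochondrial ribosomal proteins under other symbols, and 0 of these were called by limma (1 had an unadjusted p under 0.05), edgeR or DESeq2, while voom with quality weights called Ict1. Their median log2 change was -0.06, close to that of the members. Ict1, a peptidyl-tRNA hydrolase built into the large subunit, went from 732 ± 59.3 to 636 ± 18.5 normalized counts (log2 change -0.20, SE 0.07, adjusted p = 0.111), and every fasted library was below every fed one. Mrp63, another large-subunit protein, had -0.12 (SE 0.13, adjusted p = 0.609). Besides Ict1, 1 of the 7 genes had groups that did not overlap, with every fasted library above every fed one. The groups did not overlap for 14.3% of all genes tested.

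Genes that build the ribosome and serve translation were counted beside it. Their counts are to be read against the 11% of all genes tested that limma called. Of 24 genes for its assembly 3 fell and 1 rose (16.7% called), with a median log2 change of -0.03, and 20 did not pass. Noa1, a GTPase of small-subunit assembly, stood at 521 to 610.4 normalized counts in the fed and 423 to 475 in the fasted libraries (log2 change -0.32, SE 0.07, adjusted p = 0.0186). Gtpbp5, a GTPase of large-subunit maturation, fell by 0.28 (SE 0.07, adjusted p = 0.0204), and Mpv17l2, an inner-membrane protein bound to the large subunit, fell by 0.31 (SE 0.09, adjusted p = 0.0458). Ddx28, a helicase of large-subunit assembly, rose, with 230.1 to 267 in the fed and 293 to 341 in the fasted libraries (log2 change 0.37, SE 0.09, adjusted p = 0.0207).

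Of 22 genes for charging the tRNAs, 3 fell and none rose (13.6% called), with a median log2 change of -0.08. Among them Pet112, Gatc and Qrsl1 encode subunits of an amidotransferase, and the others encode aminoacyl-tRNA synthetases. Cars2, a synthetase, stood at 637 to 816 normalized counts in the fed and 479 to 559.9 in the fasted libraries (log2 change -0.44, SE 0.09, adjusted p = 0.0122), and Yars2 and Aars2 fell by 0.44 and 0.30 on the log2 scale (adjusted p = 0.0217 and 0.0266). Of 16 translation factors, Gfm2, which splits ribosomes for reuse, fell by 0.26 (SE 0.08, adjusted p = 0.0456), and the list's median was -0.13 (6.25% called). Of 24 import genes, Tomm20, a receptor of the outer membrane, rose by 0.43 (SE 0.12, adjusted p = 0.0421), and the median was -0.07 (4.17% called). These calls also depended on the setting. Of 24 alternatives, Cars2 and Noa1 kept their calls in 23, Gtpbp5 and Yars2 in 20 and Ddx28 in 19. Aars2 kept its call in 16, Tomm20 in 14, and Gfm2 and Mpv17l2 in 13.

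None of 21 genes for the expression and copying of mitochondrial DNA was called by limma (2 had an unadjusted p under 0.05), and Pnpt1, an RNA-degrading enzyme, had the smallest p (log2 change -0.27, SE 0.09, adjusted p = 0.0844). DESeq2 and voom with quality weights each called Pnpt1, and edgeR called 0. Over the 24 alternatives Pnpt1 was called in 5. None of 13 regulators of mitochondrial biogenesis was called by limma either (3 had an unadjusted p under 0.05). By edgeR the count was 0, by DESeq2 1 (Esrra) and by voom with quality weights 3 (Esrra, Esrrb and Myc). Esrra, a nuclear receptor that drives mitochondrial genes, went from 2789 ± 214 to 2223 ± 349 normalized counts (log2 change -0.34, SE 0.10, adjusted p = 0.0516), with Fasted 2 at 2734 inside the fed range. Among genes for factors whose letters were searched, the log2 change was -0.04 (SE 0.08) for Nrf1, -0.08 (SE 0.06) for Gabpa and -0.00467 (SE 0.0649) for Yy1. Myc, whose protein binds E-box letters, had 0.68 (SE 0.27, adjusted p = 0.141), the highest of the 13 regulators. The mitochondrially encoded genes, which the ribosome translates, were not analysed here.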

How the data were processed

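RNA from kidney cortex of 9 mice was sequenced, with 1 library per mouse. Per the submitters' processing notes, reads were checked with FastQC, aligned with TopHat2 2.0.9, counted with HTSeq 0.9.1 and analysed with DESeq2 ("3.5"), with mm10 and hg19 as builds. The annotation is not given in the sources used here. The authors deposited, for each mouse, a normalized signal per gene: counts over a size factor. Every one of the 161194 values above 0 is a whole number of reads times the worth of 1 read in that library (tolerance 0.01 reads). The log2 fold change, score and adjusted p-value of the authors' deposited table come from their own fit, and of these only adjusted p-values are printed.

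Changes were tested with limma 3.58.1 (trended, two-sided, R 4.3.3) on log2(normalized count + 1), for genes whose mean reached 10. Alternatives were edgeR 4.0.16 and DESeq2 1.42.0 on the reads so recovered, other pseudocounts, filters, normalizations and thresholds, voom, and each library left out. The fit was tested on simulated data whose changes were larger than those of any member. That run does not show how well changes of the members' size are found. P-values set the difference between the groups against the spread between mice within them. In limma that spread is drawn towards a trend over all genes. The members and gene lists were chosen with earlier results of these data known. Named were the called members, the 6 largest increases and 6 largest decreases, the 4 highest and 4 lowest levels per kilobase, genes whose name and place differ, and in related lists the called genes or the smallest p. Other names, such as Mrps15, Mrpl19, Mrpl50 and the genes of motif factors, were added after their values were seen. Positions are from GENCODE M21 (GRCm38, 76 of 76 members matched by Ensembl identifier) and promoters from RefSeq. Subunit and bacterial counterpart are textbook assignments.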

Additional observations from a re-analysis of the deposited data

Results flagged for a closer look

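For the named members and the library summaries, 44 groups were searched for a library far from the rest of its group, and 2 (4.5%) were found, about the 1 in 20 groups that chance flags. Mrpl12 stood at 1901 normalized counts in Fasted 2, against 1269 to 1376 in the other fasted libraries. Mrpl48, a mitochondria-specific large-subunit gene, stood at 324 in Fed 2, against 279 to 289.5 in the other fed libraries.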

How the results depend on the processing

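The median log2 change of the members (-0.07) kept its sign in all 24 alternatives. It ranged from -0.106 (without Fed 5) to -0.0520 (without Fed 2) with 1 library left out and was -0.134 with voom and quality weights. Counts of calls are given in the order members, Mrpl genes, Mrps genes, genes of the 7 related lists and all genes, and were 2, 2, 0, 9 and 1656. They became 12, 7, 5, 20 and 2702 with voom and quality weights, and 6, 5 and 1, with 15 of the related lists, by DESeq2. At a threshold of 0.01 they were 0, 0, 0, 0 and 538, and at 0.10 they were 9, 4, 5, 17 and 2628. Members and Mrpl genes had 1 each by limma without a trend, and 1 each, with 1068 genes in all, without Fed 3 and Fasted 1 together, an alternative chosen after seeing the data. With 1 library left out, counts ranged from 0 to 8, 0 to 4 and 0 to 4, 3 (without Fed 1) to 12 (without Fed 3) for the related lists, and 861 (without Fasted 4) to 1959 (without Fed 5) for all genes. The median of large minus small (-0.03) changed sign to 0.0079 with voom and quality weights, ranged from -0.0527 (without Fed 5) to 0.0079 (without Fed 3) with 1 library left out, and was 0.0055 without Fed 3 and Fasted 1 together. The cause of these shifts was not tested. No paired analysis was possible because the labels give no pairing between mice, and the library numbers only follow the order of the samples.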
